A study of Mus musculus with 6 samples.

Results

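The genes for the receptors of stress hormones and social peptides, with 3 genes that act beside them, were followed across the cell classes of the mouse prelimbic cortex (PL), the middle part of the medial prefrontal cortex. The 8 genes were taken by symbol from the 32285 genes of the count matrices: the glucocorticoid receptor Nr3c1, the mineralocorticoid receptor Nr3c2, the co-chaperone Fkbp5, the kinase Sgk1, the corticotropin-releasing hormone (CRH) receptor Crhr1, the CRH binding protein Crhbp, the oxytocin receptor Oxtr and the vasopressin receptor Avpr1a. Single nucleus RNA-Seq (snRNA-Seq) with the 10x Chromium 3′ kit gave 6 libraries, each made from the PL of 3 C57BL/6 males from different mothers. Run males were raised by dams with a running wheel in the cage after birth, and Sed males by dams in standard cages. From weaning the males were group-housed (GH) or kept in social isolation (SI). Cohort 1 held 1 Run GH and 1 Sed GH library from males that had been through the tube test of social dominance. The paper describes them as the males with the top and bottom ranks of their group. Cohort 2 held 4 libraries from males without behavioral testing, 1 from each combination of maternal environment (Run or Sed) and housing (GH or SI). The labels give postnatal day 21, which in the methods is the day of weaning. Tissue was collected at about 4 months of age per the methods. No male had a wheel of its own, and the labels name no transgene or drug. Because a library is a pool, the spread between libraries is the only replicate error here.

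Corticosterone, the main glucocorticoid of the mouse, crosses the membrane and binds 2 nuclear receptors, the high-affinity mineralocorticoid receptor and the lower-affinity glucocorticoid receptor, which move to the nucleus and act on DNA. FKBP5 is a co-chaperone in the receptor complex that lowers the hormone affinity of the glucocorticoid receptor, and both Fkbp5 and Sgk1 are classic genes induced by glucocorticoids. CRH, oxytocin and vasopressin act through G protein-coupled receptors at the cell surface, and CRHBP sequesters CRH outside the cell. All of these systems are known for their part in stress and social behavior.

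Sgk1 had 6 annotated RefSeq promoters, and 1 of them held the palindrome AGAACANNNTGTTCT, the consensus element for dimers of the glucocorticoid and mineralocorticoid receptors. The stretch is shown because its letters match that element in full. A match is a description, and binding was not tested. It lies on the plus strand of GRCm38.p6 at chr10:21993661-21993755, the capitals mark the palindrome, which ends 174 bases before the start of transcription, and its half-sites on either side of the 3 free bases read the same on both strands.

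Sgk1 promoter: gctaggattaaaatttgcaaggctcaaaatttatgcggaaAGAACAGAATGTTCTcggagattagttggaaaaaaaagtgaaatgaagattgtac

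The same letters were found in 3 of 32851 promoters (0.00913%) within 250 bases before and 50 bases after the start. The single listed promoters of Nr3c2, Fkbp5, Crhr1, Crhbp, Oxtr and Avpr1a held no match in this window, which says only that these exact letters are not there. Nr3c1 was not searched here.

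In the GENCODE M21 annotation of GRCm38 the genes lie at chr18:39410545-39519421 (Nr3c1, minus strand), chr8:76899442-77245012 (Nr3c2, plus), chr17:28399094-28517527 (Fkbp5, minus), chr10:21882184-21999903 (Sgk1, plus), chr11:104132855-104175523 (Crhr1, plus), chr13:95431371-95444924 (Crhbp, minus), chr6:112473683-112489943 (Oxtr, minus) and chr10:122448499-122453452 (Avpr1a, plus). Introns made up 98.1% of Nr3c2 but 46.1% of Avpr1a. Reads from introns were counted, so levels were compared between cell classes and libraries for each gene and not between genes. Avpr1a lies entirely inside the antisense gene Gm48877. The start of Nr3c2 shares 1.18 kb with the divergent non-coding gene Gm10649.

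The libraries had 19134955 to 188952936 UMIs (unique molecular identifiers, counted transcripts) over all barcodes and 42595 nuclei in all, 4997 to 9936 each, with 1637 to 6250 median UMIs per nucleus. Cohort 1 was the deeper and carried more free RNA: droplets without a nucleus held 16.4% and 17.8% of the median UMIs of a nucleus in cohort 1 and 3.44% to 6.80% in cohort 2. Between 5 and 22 barcodes were shared by any pair of libraries. Clustering without the genes studied here gave 9 pyramidal, 6 inhibitory, 4 glial and 1 vascular class with 39985 nuclei. The remaining 2610 nuclei (6.13%) lay in clusters that the naming rules left without a class and were left out of the class comparisons. The rules did so where markers were mixed or too few, or where UMIs were few and no leading gene was a marker of the class. Of the markers, 15 of 15 were highest in the vascular class, 7 of 7 in astrocytes, 6 of 6 in microglia and in oligodendrocytes, 5 of 5 in the layer 5 extratelencephalic (ET), layer 5/6 near-projecting (NP), NPY/Lamp5, CCK/Sncg, chandelier and oligodendrocyte precursor classes, and 3 of 5 in the layer 6 corticothalamic (CT) and somatostatin (SST) classes. 4 pyramidal clusters whose markers did not single out 1 layer are called by a leading gene (Rorb, Vwa5b1, Deptor and Oprk1 clusters).

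The corticosteroid genes were found in many nuclei, the social peptide receptors in few. Over all nuclei Nr3c2 had 27739 UMIs, Sgk1 18707, Nr3c1 18423, Crhr1 6268, Fkbp5 5571, Crhbp 559 and Oxtr 157. Avpr1a had 3 UMIs in 3 nuclei. With intron reads counted, these totals describe detection and do not rank the genes by expression. Levels are CPM, the UMIs of a gene scaled to 1000000 UMIs of a class in a library, and a class was compared with its comparator inside the same 6 libraries. Pyramidal classes were set against all other pyramidal nuclei, inhibitory classes against all other inhibitory nuclei, and glial, vascular and all inhibitory nuclei against all pyramidal nuclei. An adjusted p-value under 0.05 in edgeR's quasi-likelihood test over all genes made a call. For the members, 83 of 122 tests were called (38 higher, 45 lower), against 31.8% of all 284244 tests over all genes and 171 of 492 tests of 39 other genes of the same pathways. Between pyramidal classes 38 of 54 were called (31.2% of all genes), between inhibitory classes 22 of 31 (20.4%) and against pyramidal nuclei 23 of 37 (40.1%). Avpr1a passed the filter on low counts in no comparison, Oxtr in 4, Crhr1 in 16 and Crhbp in 18 of 21. Nr3c1, Nr3c2, Fkbp5 and Sgk1 were tested in all 21. A sparse gene could pass the filter only through the side on which it was high, so the counts hold calls that the filter favored. This was so for 8 of the 83 calls, those of Oxtr, of Crhr1 in VIP interneurons and microglia and of Crhbp in NPY/Lamp5, VIP and CCK/Sncg interneurons, and for 15 of the 171. For these the levels are given with no test.

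**Figure D1:**
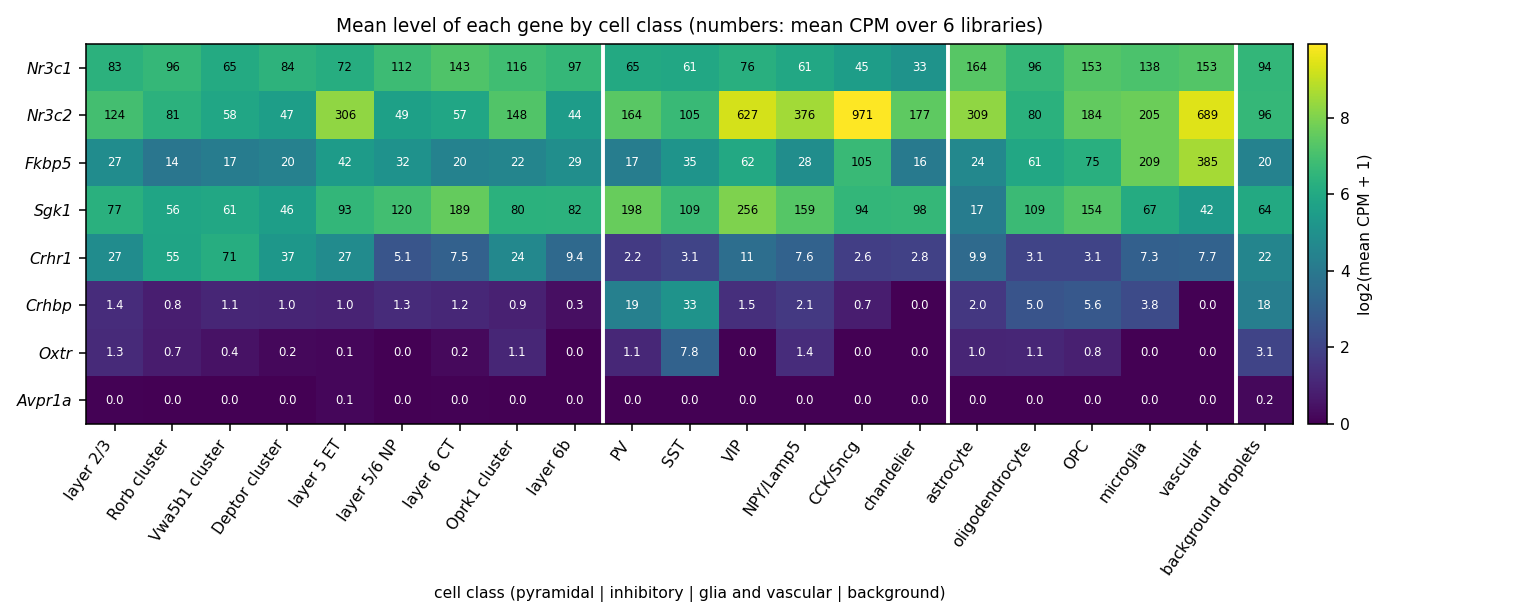
Heat map of the mean CPM over 6 libraries (printed number) of each gene (rows) in 20 cell classes and in droplets without a nucleus (columns), colored by log2(mean CPM + 1). The highest mean of Nr3c2 is 971 in CCK/Sncg interneurons, that of Fkbp5 is 385 in the vascular class, and Avpr1a is at or near 0 in every class.

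Nr3c2 differed from the comparator in 19 of 21 tests, with its highest neuronal levels in CCK/Sncg, VIP and NPY/Lamp5 interneurons and, among pyramidal neurons, in layer 5 ET. In CCK/Sncg interneurons it had 892 CPM in the lowest library, a median of 946 and 1078 in the highest, against 173 to 271 in the other inhibitory nuclei. The groups did not overlap, and the class was higher in 6 of 6 libraries (log2 difference 2.30, SE 0.11, adjusted p = 3.46e-49). VIP interneurons ranged from 414 to 1005 CPM around a median of 578, against 218 to 307 in the other inhibitory nuclei (log2 difference 1.27, SE 0.10, adjusted p = 1.46e-20). NPY/Lamp5 interneurons were also higher, 328 to 442 against 210.3 to 338 CPM (log2 difference 0.53, SE 0.10, adjusted p = 9.85e-06). SST and parvalbumin (PV) interneurons were on the other side. SST interneurons had 76.4 to 167 CPM, with a median of 95.8, against 299.8 to 418 (log2 difference -1.62, SE 0.08, adjusted p = 3.14e-22), and PV interneurons had 132 to 212 against 303 to 418 (log2 difference -1.07, SE 0.08, adjusted p = 1.74e-15). Neither overlapped its comparator. All inhibitory nuclei together had 271 ± 38.7 CPM (SD, n = 6) against 114 ± 16.7 in pyramidal nuclei (log2 difference 1.13, SE 0.05, adjusted p = 1.06e-12).

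Among pyramidal neurons, Nr3c2 marked layer 5 ET cells, the neurons that project out of the telencephalon. Their lowest library had 259 CPM, the median was 319 and the highest 330.3, and the other pyramidal nuclei had 66.2 to 126 (log2 difference 1.95, SE 0.11, adjusted p = 8.85e-12). The Oprk1 cluster was higher by 0.45 (SE 0.06, adjusted p = 1.99e-08). The 6 other pyramidal classes apart from layer 2/3 were lower in 6 of 6 libraries, 5 of them without overlap with their comparator and the Rorb cluster (56.3 to 129 against 101 to 147 CPM) with overlap. The largest of these differences on the log2 scale were -1.60 (SE 0.20, adjusted p = 1.83e-13) in layer 6b, -1.37 (SE 0.07, adjusted p = 2.96e-13) in the Deptor cluster, -1.32 (SE 0.11, adjusted p = 5.82e-16) in layer 5/6 NP and -1.11 (SE 0.08, adjusted p = 9.8e-11) in layer 6 CT neurons. In layer 2/3 Nr3c2 was 124 ± 25.0 CPM against 109 ± 13.4, and its call (log2 difference 0.18, SE 0.06, adjusted p = 0.0176) ended without either cohort 1 library (0.12 each) or with nuclei of at least 1000 genes (0.16). The share of nuclei with an Nr3c2 UMI followed the levels. After each nucleus was thinned to 1000 UMIs, the median over libraries was 60.9% in CCK/Sncg, 39.0% in VIP, 24.6% in layer 5 ET and 4.62% in layer 6 CT nuclei, and before thinning, at median depths over libraries of 3557.5, 2520.5, 5136.5 and 3681.5 UMIs, it was 93.6%, 69.0%, 71.9% and 15.9%.

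Outside the neurons, Nr3c2 was high in the vascular class, in astrocytes less so. The 156 vascular nuclei gave 298 to 886 CPM around a median of 750.0, above pyramidal nuclei in 6 of 6 libraries (log2 difference 1.81, SE 0.21, adjusted p = 5.85e-16), and astrocytes gave 223 to 467 around a median of 259 (log2 difference 1.24, SE 0.14, adjusted p = 1.25e-07). The fit scaled libraries for composition. In it the median difference of all genes was -0.34 in the vascular class, -0.41 in microglia and -0.20 in oligodendrocytes. It was -0.16 in oligodendrocyte precursors, -0.27 in chandelier and -0.11 in layer 6b nuclei. Why these medians lay below 0 was not tested. Relative to the vascular median Nr3c2 was 2.15 higher in that class. The vascular class takes in clusters named as endothelial, pericyte or vascular leptomeningeal. Its nuclei also carried 936 to 3234 CPM of the 7 astrocyte markers together, against 10554 to 11877 in astrocytes. Of the 5 pyramidal markers together they carried 556 to 1106 CPM, against 1453 to 1668 in pyramidal nuclei. The part of astrocyte and pyramidal transcripts in the vascular levels was not tested.

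Nr3c1 differed between fewer classes than Nr3c2, with 9 of 21 tests called. Layer 6 CT neurons had 126 CPM in the lowest library, a median of 136 and 168 in the highest, against 73.1 to 103 in the other pyramidal nuclei (log2 difference 0.75, SE 0.05, adjusted p = 8.85e-11). Each of the 6 layer 6 CT levels lay above all 6 comparator levels. The Oprk1 cluster was higher by 0.38 (SE 0.05, adjusted p = 1.59e-07), while the Vwa5b1 cluster was lower by 0.51 (log2 difference -0.51, SE 0.06, adjusted p = 3.56e-08) and layer 5 ET neurons had 72.0 ± 10.0 CPM against 94.7 (log2 difference -0.34, SE 0.06, adjusted p = 0.000189). Inhibitory nuclei as a whole were below pyramidal nuclei in 6 of 6 libraries, 51.7 to 82.7 against 81.0 to 108 CPM, with an overlap of the ranges (log2 difference -0.67, SE 0.06, adjusted p = 4.84e-08). CCK/Sncg interneurons, the class with the most Nr3c2, had 13.9 to 70.4 CPM of Nr3c1 around a median of 51.6, below the other inhibitory nuclei in 4 of 6 libraries (log2 difference -0.58, SE 0.21, adjusted p = 0.037). That call was lost in 5 alternatives, among them DESeq2 (-0.60) and the fits without cohort 1 Run GH (-0.56), Run SI (-0.51) or Sed SI (-0.53). VIP interneurons were higher in 4 of 6 libraries and lower in cohort 2 Sed GH (21.4 CPM) and Sed SI (35.1 CPM) (log2 difference 0.58, SE 0.17, adjusted p = 0.00697), a call lost in 4 alternatives, among them the fit without cohort 1 Run GH (0.44). The low values rest on 1 UMI (Sed GH) and 4 UMIs (Sed SI). VIP nuclei carried 406 to 1035 CPM of the 5 pyramidal markers together, against 348 to 631 in all inhibitory nuclei. The part of pyramidal transcripts in their Nr3c1 level was not tested. Astrocytes had 132 to 201 CPM, above pyramidal nuclei in 6 of 6 libraries (log2 difference 0.59, SE 0.12, adjusted p = 0.00029), and this call was lost with nuclei of at least 1000 genes (0.38).

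**Figure D2:**
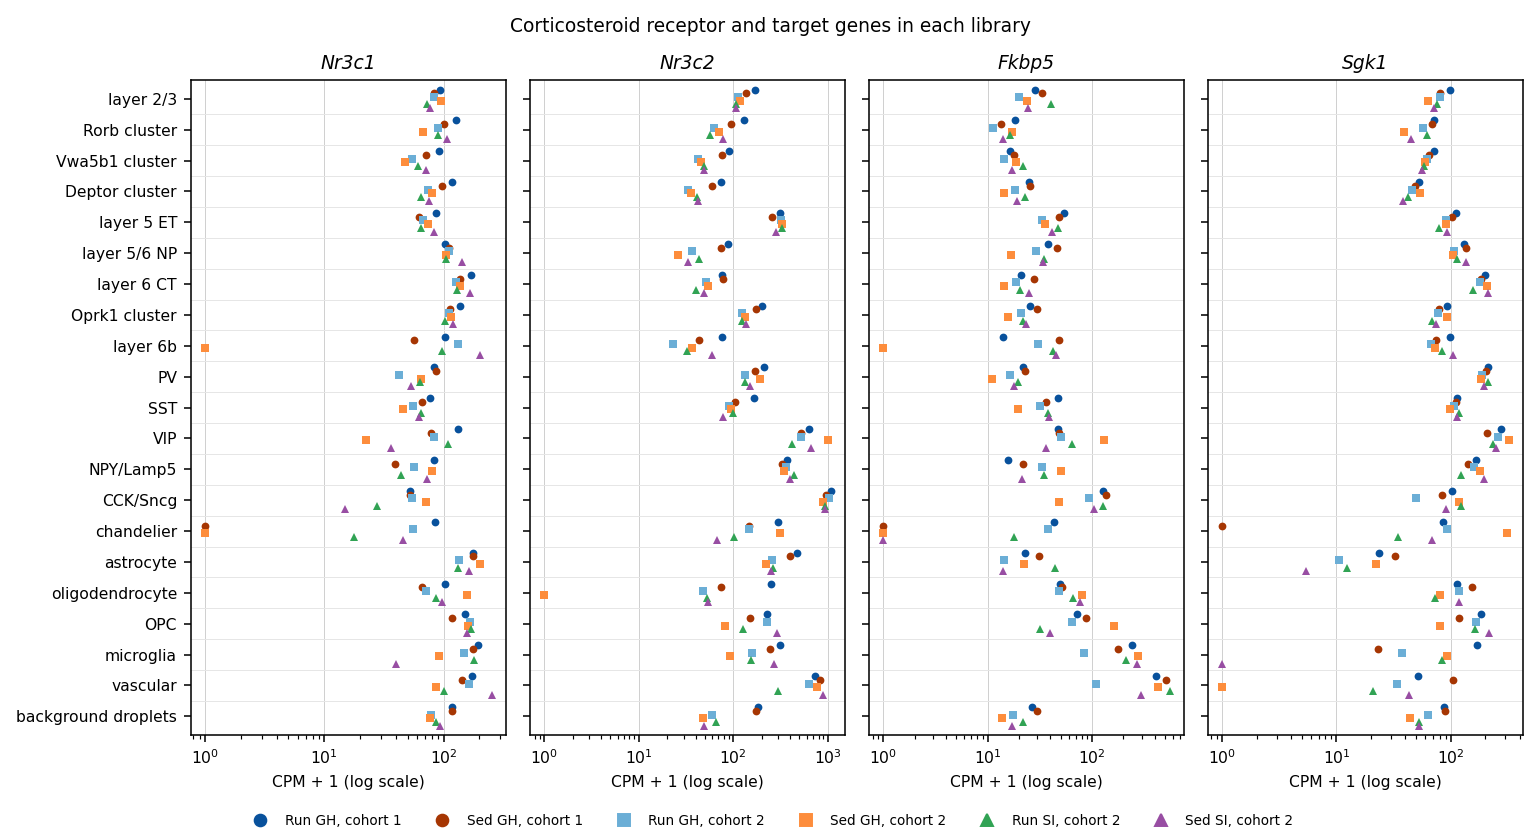
CPM + 1 (log axis) of Nr3c1, Nr3c2, Fkbp5 and Sgk1 in each of the 6 libraries (points, colored by library) for 20 cell classes and droplets without a nucleus (rows). Nr3c2 spans 892 to 1078 CPM in CCK/Sncg and 39.6 to 76.2 CPM in layer 6 CT nuclei, while Nr3c1 lies between 13.9 and 70.4 CPM and between 126 and 168 CPM in the same classes.

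The balance of the nuclear receptors differed between classes. The ratio of summed Nr3c2 to Nr3c1 UMIs was 23.2 in CCK/Sncg, 6.15 in NPY/Lamp5, 5.97 in VIP, 4.6 in vascular, 4.34 in layer 5 ET and 2.48 in PV nuclei. Summed UMIs give deep libraries more weight, and by the mean log2 ratio of the libraries VIP (3.10) stood above NPY/Lamp5 (2.62) and layer 5 ET (2.09) above the vascular class (2.06). The VIP mean includes 4.98 in cohort 2 Sed GH and 4.07 in Sed SI, on 1 and 4 Nr3c1 UMIs. The other VIP libraries had 1.91 to 2.74, and the NPY/Lamp5 libraries 2.06 to 3.33. The ratio of summed UMIs was 1.60 in layer 2/3, and below 1 in the Vwa5b1 (0.905), Rorb (0.879) and Deptor (0.577) clusters, in layer 5/6 NP (0.465), in layer 6 CT (0.424) and, on 132 Nr3c1 UMIs, in layer 6b neurons (0.424). The lowest library of the CCK/Sncg class had a ratio of 11 and the highest library of layer 6 CT had 0.559. Each class was compared with layer 2/3 inside the libraries by a two-sided exact sign-flip permutation test, in which p = 0.03125 is the smallest value that 6 libraries allow. 12 of 19 classes reached it, for an adjusted p of 0.0495 over the 19 tests. In 6 of these the ratio was above layer 2/3 in all 6 libraries (layer 5 ET, PV, VIP, NPY/Lamp5, CCK/Sncg and vascular) and in 6 it was below in all 6 (layer 5/6 NP, layer 6 CT and the Rorb, Vwa5b1, Deptor and Oprk1 clusters). The SST, astrocyte, oligodendrocyte, oligodendrocyte precursor, microglia, layer 6b and chandelier classes did not reach it (raw p from 0.0625 to 1). Introns and exons of the 2 genes were counted alike in every class, so the ratio compares classes and does not give the ratio of the receptor proteins.

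**Figure D3:**
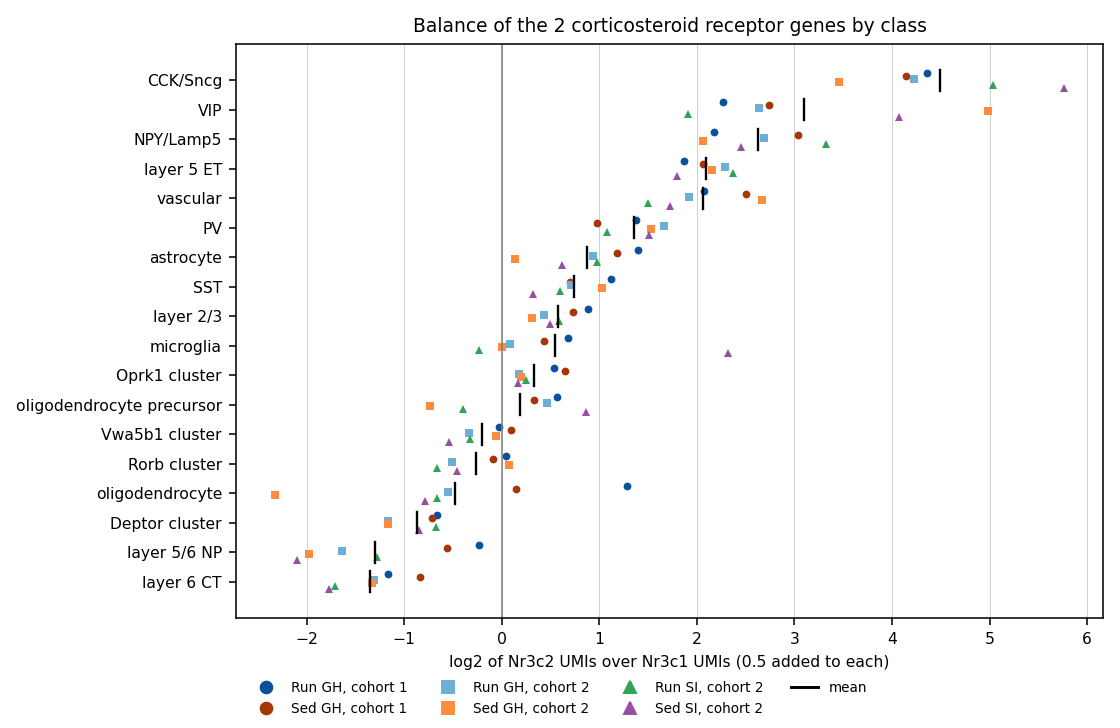
log2 of Nr3c2 UMIs over Nr3c1 UMIs (0.5 added to each) in each library (points) for 18 cell classes (rows, ordered by the mean, black bar). All 6 libraries lie above 0 in the CCK/Sncg, VIP, NPY/Lamp5, layer 5 ET and PV classes and below 0 in the Deptor cluster, layer 5/6 NP and layer 6 CT classes.

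Fkbp5 was highest outside the neurons. The vascular class had 109 CPM in the lowest library, a median of 417 and 556 in the highest, against 24.4 ± 4.25 (SD, n = 6) in pyramidal nuclei (log2 difference 3.17, SE 0.23, adjusted p = 9.83e-42, or 3.51 above the median of all genes). Its mean of 385 CPM became 633 with nuclei of at least 1000 genes and with the cohorts clustered apart, in which the class held 85 and 86 nuclei in place of 156. Microglia had 82.5 to 273 CPM around a median of 225 (log2 difference 2.11, SE 0.29, adjusted p = 8.57e-12). Both classes were above pyramidal nuclei in 6 of 6 libraries, on 208 and 62 UMIs, and astrocytes, whose 7 markers summed to 1184 to 4568 CPM in microglia as well, had 13.2 to 43.5 CPM of Fkbp5. The highest neuronal level was in CCK/Sncg interneurons, with a median of 115 CPM and a range of 47.0 to 134 against 24.7 to 31.7 in other inhibitory nuclei (log2 difference 2.07, SE 0.18, adjusted p = 3.77e-22), the lowest value being that of the shallowest library, cohort 2 Sed GH. Layer 5 ET neurons had 32.4 to 53.0 CPM against 17.3 to 26.3 (log2 difference 1.02, SE 0.07, adjusted p = 4.53e-10). Both classes were also high in Nr3c2. PV interneurons were lower (log2 difference -1.34, SE 0.14, adjusted p = 1.96e-10), as was the Rorb cluster (log2 difference -0.88, SE 0.11, adjusted p = 2.56e-08). Fkbp5 lost the largest share of its calls: 10 of 15 were lost in at least 1 alternative, 9 of them after thinning. Those of VIP (0.63) and layer 5/6 NP neurons (0.32) turned to -0.00241 and -0.27 there.

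Sgk1, which promotes ion channel and transporter activity, was highest in VIP and PV interneurons and in layer 6 CT neurons. Layer 6 CT neurons had 156 CPM in the lowest library, a median of 191 and 209.8 in the highest, against 65.9 to 84.6 in other pyramidal nuclei (log2 difference 1.36, SE 0.06, adjusted p = 1.02e-13), so the groups did not overlap. PV interneurons had 182 to 212 CPM against 127 to 148 (log2 difference 0.57, SE 0.07, adjusted p = 3.94e-08), and VIP interneurons had 206 to 321 against 141 to 159 (log2 difference 0.73, SE 0.11, adjusted p = 8.63e-08). SST interneurons were lower, 97.7 to 116 against 173 to 197 CPM (log2 difference -0.69, SE 0.08, adjusted p = 4.94e-10), and so were CCK/Sncg interneurons (log2 difference -0.79, SE 0.15, adjusted p = 7.05e-06). The Deptor cluster had 37.1 to 52.7 CPM against 87.0 to 106 (log2 difference -1.03, SE 0.05, adjusted p = 2.66e-13). Astrocytes were low, 4.4 to 31.6 CPM around a median of 16.3 and below pyramidal nuclei in 6 of 6 libraries (log2 difference -2.47, SE 0.20, adjusted p = 3.25e-10). Sgk1 in layer 5 ET nuclei was 93.1 ± 11 against 87.1 CPM, and its call (log2 difference 0.15, SE 0.06, adjusted p = 0.0317) was lost in 10 alternatives. With totals in place of composition scaling the calls of Sgk1 in microglia (-0.29) and vascular nuclei (-0.66) and of Nr3c2 in oligodendrocytes (-0.33) were lost.

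Crhr1, the main CRH receptor of the cortex, was a gene of pyramidal neurons. Pyramidal nuclei had 24.6 to 49.6 CPM and inhibitory nuclei 1.29 to 8.48 (log2 difference -3.01, SE 0.13, adjusted p = 2.47e-13). Within the pyramidal nuclei the Vwa5b1 cluster was highest, with 51.9 CPM in the lowest library, a median of 57.8 and 106 in the highest, against 19.3 to 40.6 (log2 difference 1.41, SE 0.06, adjusted p = 1.31e-18). The Rorb cluster followed with 34.2 to 84.5 CPM against 23.5 to 46.9 (log2 difference 0.83, SE 0.08, adjusted p = 3.79e-12). Each was above its comparator in 6 of 6 libraries, and of these 2 clusters the Rorb cluster overlapped its comparator. With at least 1000 genes the Vwa5b1 cluster held 5977 nuclei in place of 4396 and no Rorb cluster was found (log2 difference of Crhr1 in the Vwa5b1 cluster 1.49), and with the cohorts clustered apart the Vwa5b1 cluster was found in cohort 1 alone (1394 nuclei), so its calls have no value there. Layers 6 CT and 5/6 NP had little. Layer 6 CT neurons had 4.54 to 12.9 CPM (log2 difference -2.35, SE 0.09, adjusted p = 2e-14) and layer 5/6 NP neurons 0 to 13.1 (log2 difference -2.76, SE 0.21, adjusted p = 6.6e-17). Among inhibitory classes Crhr1 passed the filter in VIP interneurons alone, on 20 UMIs at 0 to 25.2 CPM, so no test between them is given. The droplets without a nucleus held 17.2 to 30.1 CPM of Crhr1, and the 76 UMIs in inhibitory nuclei were not separated from such free RNA. The 3 genes with the most similar profile over 18 classes, as Pearson's r of mean log2(CPM + 1) among 12629 genes, were Dnah7c (0.94), Grasp (0.92) and Hkdc1 (0.91).

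Crhbp was highest in SST interneurons, followed by PV interneurons. Inhibitory nuclei had 16 to 21.7 CPM and pyramidal nuclei 0.427 to 1.82 (log2 difference 4.02, SE 0.21, adjusted p = 6.1e-12). SST interneurons had 23.3 CPM in the lowest library, a median of 33.5 and 43.3 in the highest, against 5.92 to 15.4 in the other inhibitory nuclei (log2 difference 1.43, SE 0.19, adjusted p = 1.24e-08). PV interneurons had 10.1 to 24.5 CPM on 121 UMIs, and no difference from the other inhibitory nuclei was called (log2 difference 0.25, SE 0.18, adjusted p = 0.354). The other inhibitory classes named here had almost none, with 4 UMIs in NPY/Lamp5, 2 in VIP and 1 in CCK/Sncg nuclei. There Crhbp passed the filter through the other inhibitory nuclei, so no test is given. A Crhbp UMI was found in a median of 9.95% of SST nuclei and 0.396% of pyramidal nuclei, or 3.53% and 0.131% after thinning, at median depths over libraries of 3159 and 4037 UMIs. Droplets without a nucleus held 4.57 (Run) and 3.18 CPM (Sed) of Crhbp in cohort 1, and in cohort 2 25.1 (Run GH), 24.3 (Sed GH), 26.0 (Run SI) and 24.1 CPM (Sed SI). SST interneurons were above the droplets in 5 of 6 libraries and below them in Run SI. PV interneurons were above them in cohort 1 and below them in all 4 libraries of cohort 2. Droplet CPM gives the make-up of the free RNA and not its amount in a nucleus. In cohort 2 droplets held 3.44% to 6.80% of the median UMIs of a nucleus. The part of free RNA in the PV level is therefore not given by these CPM and was not tested. The genes most similar to Crhbp were Lhx6 (r = 0.96), a transcription factor of SST and PV interneurons, Rbp4 (0.92) and Tmem132c (0.92).

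Oxtr was sparse and highest in SST interneurons. The 31 UMIs of the SST class gave 5.35, 4.94 and 6.51 CPM in the Run GH libraries of cohorts 1 and 2 and the Run SI library, and 4.60, 15 and 10.2 CPM in the Sed GH libraries of cohorts 1 and 2 and the Sed SI library. The other inhibitory nuclei had 0 to 1.72 CPM on 11 UMIs, below the SST class in 6 of 6 libraries. All inhibitory nuclei had 2.06 to 5.18 CPM and pyramidal nuclei 0.315 to 0.878. Layer 2/3 neurons held 57 UMIs at 0 to 2.15 CPM, above the other pyramidal nuclei in 5 of 6 libraries. Droplets without a nucleus held 1.15 (Run) and 0.641 CPM (Sed) of Oxtr in cohort 1, and in cohort 2 4.95 (Run GH), 6.69 (Sed GH), 2.98 (Run SI) and 1.93 CPM (Sed SI). The SST level, on 4 to 7 UMIs per library, was above that of the droplets in 5 of 6 libraries and level with it in cohort 2 Run GH. Droplet CPM gives the make-up of the free RNA and not its amount in a nucleus, and in neither class were the UMIs separated from free RNA. In each of these comparisons Oxtr passed the filter only through the nuclei in which it was high, so the levels are a description and no test is given. No UMI was found in 420 VIP nuclei, which allows a share of up to 0.714%, in 299 CCK/Sncg nuclei (up to 1.00%) or in 1553 layer 5/6 NP nuclei (up to 0.193%), by counting error alone. These limits are on nuclei with an Oxtr UMI, not on nuclei that express the gene. An Oxtr UMI was found in a median of 2.43% of SST and 0.342% of pyramidal nuclei, or 0.716% and 0.0348% after thinning. Oxtr and Crhbp had the most similar profiles of any pair of members (r = 0.77 over the 18 classes, which share libraries and depth). With 157 Oxtr UMIs over all nuclei, this r rests on few counts.

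**Figure D4:**
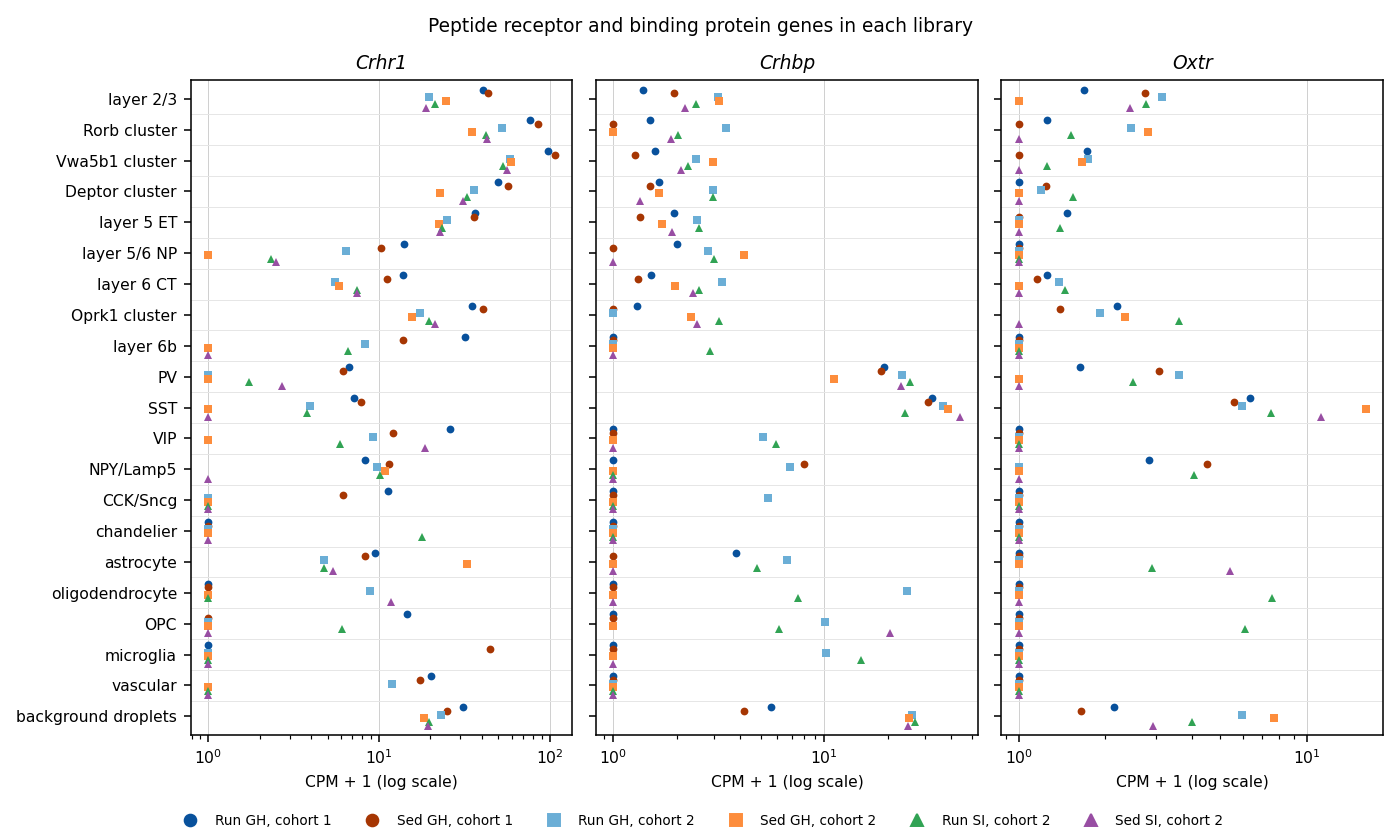
CPM + 1 (log axis) of Crhr1, Crhbp and Oxtr in each of the 6 libraries (points, colored by library) for 20 cell classes and droplets without a nucleus (rows). Crhr1 reaches 51.9 to 106 CPM in the Vwa5b1 cluster, Crhbp 23.3 to 43.3 CPM and Oxtr 4.60 to 15 CPM in SST interneurons.

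Avpr1a was near the limit of detection. Its 3 UMIs fell in layer 2/3 (Sed SI), layer 5 ET (cohort 2 Sed GH) and layer 6 CT neurons (Run SI), and no library of cohort 1 held any in a named class. At this depth a difference between classes or groups was not detectable.

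In the ordered levels of each gene, 152 pairs of neighbouring classes were compared within the libraries by the exact sign-flip test. With 6 libraries a pair could pass after adjustment only if most of the 152 pairs reached the smallest p that the test allows, so this gives no verdict on single steps (smallest adjusted p = 0.264). For Nr3c2 7 steps, among them those from NPY/Lamp5 to layer 5 ET, from layer 2/3 to SST and from the Rorb cluster to layer 6 CT, ran the same way in 6 of 6 libraries. For the corticosteroid genes the most similar profiles were those of Mmd2 (0.85), Itgav (0.84) and Pou3f2 (0.82) for Nr3c1, Pbx3 (0.81), Sbno2 (0.81) and Stx5a (0.80) for Fkbp5, and Pak3 (0.84), Nalcn (0.83) and Myef2 (0.81) for Sgk1. For Nr3c2 they were Gm10649 (0.83), G6pdx (0.79) and Ap1s2 (0.78), the first of which begins at the same divergent start and overlaps it. For Oxtr they were Tmtc4 (0.85), 9630002D21Rik (0.79) and Smc2 (0.77). Oxtr had 157 UMIs over all nuclei, fewer than the 500 asked of the compared genes, so its r values rest on few counts.

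The other 39 genes of the pathways were called in 78 of 228 tests between pyramidal classes (34.2%), 24 of 107 between inhibitory classes (22.4%) and 69 of 157 against pyramidal nuclei (43.9%), shares near those of all genes (31.2%, 20.4% and 40.1%). Hsd11b1, the enzyme that regenerates active glucocorticoid, was highest in the Vwa5b1 cluster, 7.33 to 10.3 CPM against 0.636 to 1.75 (log2 difference 2.90, SE 0.17, adjusted p = 2.08e-14), the class that also had the most Crhr1. It had 7 UMIs in layer 6 CT and 3 in layer 5/6 NP nuclei, and was lower in the Rorb cluster (log2 difference -2.12, SE 0.50, adjusted p = 0.000985), a difference that turned to 1.38 with the cohorts clustered apart. The second CRH receptor, Crhr2, was highest in SST interneurons, 7.44 to 33.3 CPM on 82 UMIs against 0 to 6.32 on 31. The target Hif3a had 24 UMIs in CCK/Sncg interneurons, 0 to 51.6 CPM against 0.664 to 2.99. The target Errfi1, a feedback inhibitor of the EGF receptor, was higher in NPY/Lamp5 interneurons (log2 difference 1.72, SE 0.20, adjusted p = 3.25e-10). The target Zbtb16 was lower in chandelier cells (log2 difference -2.52, SE 0.32, adjusted p = 1.38e-13). Among non-neuronal classes, Hif3a was higher in astrocytes (log2 difference 5.45, SE 0.20, adjusted p = 3.21e-16). Astrocytes had 8.80 to 18.9 CPM of Pdk4, a brake on pyruvate oxidation, against 0 to 0.105 in pyramidal nuclei, and 0 to 48.4 CPM of Cd38, an enzyme tied to oxytocin release, against 0.0928 to 0.524. The Sgk1 relative Sgk2 had 29.1 to 315 CPM in oligodendrocytes against 0.0928 to 0.255.

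The study's question was whether the maternal and the social environment alter gene expression in PL cells. With all libraries, no difference of a member between Run and Sed or between SI and GH was called in any of the 14 classes with at least 20 nuclei per library. For Run against Sed, 0 of 67 tests were called (2 at an unadjusted p under 0.05), with 0.0394% of all genes called and 0 tests of members called by DESeq2. For SI against GH, 0 of 67 were called (2 at an unadjusted p under 0.05), with 0.000703% of all genes called and 0 tests of members called by DESeq2. The fitted log2 differences between Run and Sed lay between -0.35 and 0.41 for Nr3c2, between -0.39 and 0.27 for Sgk1 and between -0.15 and 0.14 for Crhr1, with median standard errors of 0.17, 0.15 and 0.17. Nr3c1 in VIP interneurons had the smallest adjusted p (log2 difference 1.04, SE 0.32, adjusted p = 0.725). Its levels were 130.2, 82.9 and 108 CPM in the Run GH libraries of cohorts 1 and 2 and the Run SI library, and 77.3, 21.4 and 35.1 CPM in the matching Sed libraries. The Run values were all above the Sed values, on 130 UMIs in all. Of the Sed values, that of cohort 2 Sed GH rests on 1 UMI and that of Sed SI on 4. The order is a description, and the share of all genes with the same order is not given. Between SI and GH the estimate of Fkbp5 was above 0 in 12 of 14 classes. Within cohort 2 its level in Run SI was above Run GH in each of the 14 classes. In Sed SI it was below Sed GH in VIP, NPY/Lamp5 and astrocyte nuclei and in the Rorb and Vwa5b1 clusters. In cohort 2 droplets without a nucleus held 20.9 (Run SI), 16.7 (Run GH), 16.2 (Sed SI) and 12.7 CPM (Sed GH) of Fkbp5. All classes of a library come from the same pool, so the classes in which Fkbp5 was higher are not replicates. The share of all genes with as many classes in the same direction is not given. In layer 2/3 the levels were 39.95 CPM in Run SI, 18.9 in cohort 2 Run GH, 23.3 in Sed SI and 22.8 in cohort 2 Sed GH (log2 difference 0.67, SE 0.26, adjusted p = 1). The Run SI library alone stood above the other cohort 2 libraries there, and the cohort 1 GH libraries, at 27.3 (Run) and 32.3 CPM (Sed), lay above Sed SI. Without cohort 1 Run GH or cohort 1 Sed GH the estimate of this Fkbp5 difference was 0.74 each. There the cohort term takes up the remaining cohort 1 library, so these fits rest on the cohort 2 libraries and are no separate support. In the fit of cohort 2 alone the difference was not called (log2 difference 0.73, SE 0.19, adjusted p = 0.137). Whether the effect of the maternal environment differed between SI and GH was also tested, and 0 of 70 tests were called (2 at an unadjusted p under 0.05, with 0.00518% of all genes called).

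**Figure D5:**
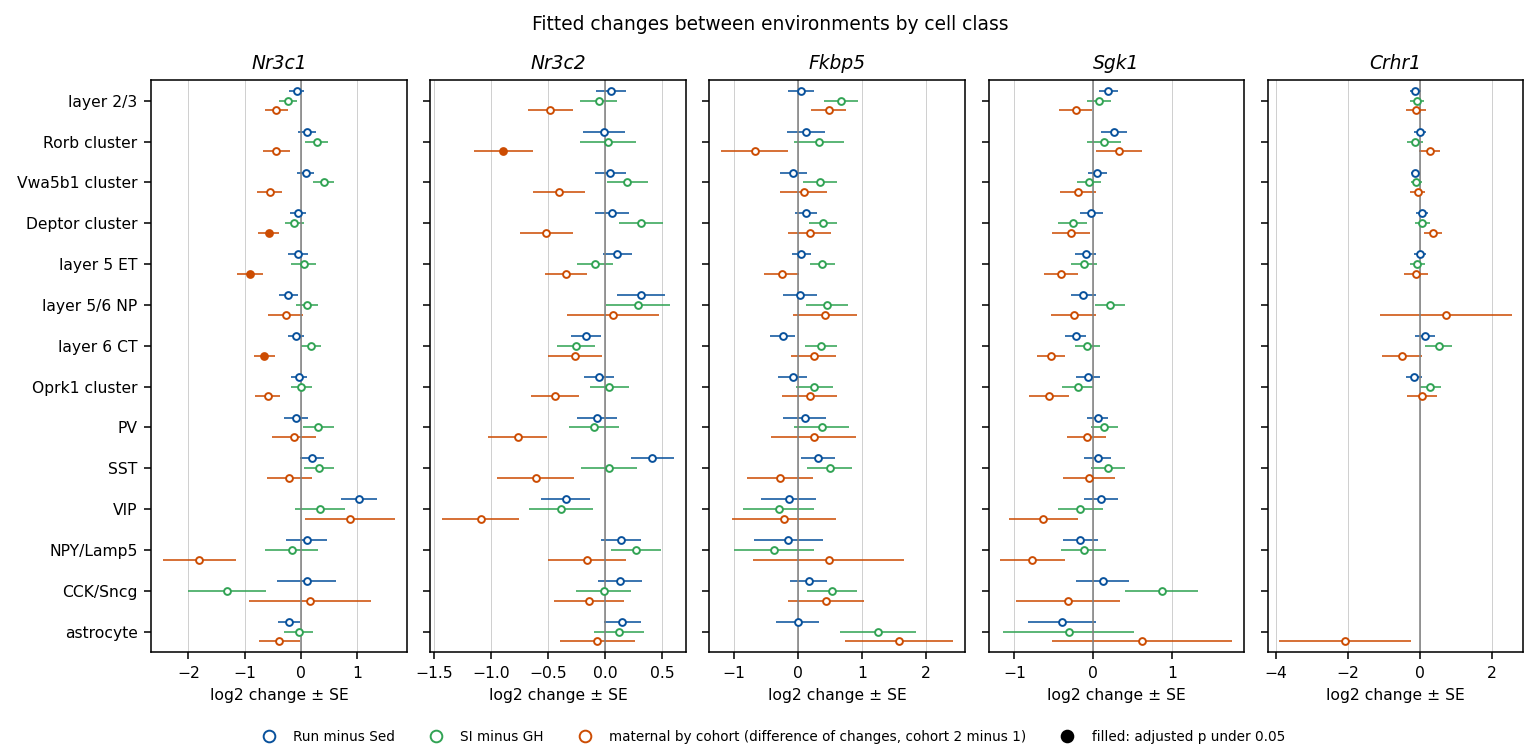
Fitted log2 changes ± SE (horizontal axis) of 5 genes in 14 cell classes (rows) for Run minus Sed (blue), SI minus GH (green) and the change of Run minus Sed between cohorts, cohort 2 minus cohort 1 (orange); filled points have an adjusted p under 0.05. The 4 filled points are Nr3c1 in the Deptor cluster, layer 5 ET and layer 6 CT classes and Nr3c2 in the Rorb cluster, at -0.57, -0.90, -0.65 and -0.89.

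A difference between the cohorts in the change from Sed to Run was called for Nr3c1 in layer 5 ET, layer 6 CT and, in few alternatives, Deptor nuclei, and for Nr3c2 in the Rorb cluster. The interaction of maternal environment and cohort was called in 4 of 70 tests, with 2.9% of all genes called. All 4 were below 0. Most calls over all genes were below 0 as well, 3253 against 1234 above, so this direction is not particular to the members. In layer 5 ET neurons Nr3c1 had 86.1 CPM in Run and 61.7 in Sed in cohort 1, and 66.0 and 72.7 in the group-housed pair and 63.8 and 81.8 in the isolated pair of cohort 2. Run was thus the higher in cohort 1 and the lower in both pairs of cohort 2 (log2 difference of the changes -0.90, SE 0.23, adjusted p = 0.00563). In layer 6 CT neurons Nr3c1 had 168 and 136 CPM in cohort 1, then 126 and 135, and 129.8 and 165 CPM in cohort 2 (-0.65, SE 0.18, adjusted p = 0.0173). The Deptor cluster had the same order, 116 and 96.2, then 72.7 and 78.4, and 64.3 and 74.1 CPM (-0.57, SE 0.19, adjusted p = 0.0477). Nr3c2 in the Rorb cluster had 129 and 93.7 CPM in cohort 1, then 62.4 and 70.2, and 56.3 and 76.4 (-0.89, SE 0.26, adjusted p = 0.0297). With all pyramidal nuclei in 1 sum, where 12.9% of all genes were called, Nr3c2 (-0.47, SE 0.14, adjusted p = 0.00864) and Nr3c1 (-0.42, SE 0.14, adjusted p = 0.0263) were called, and with all inhibitory nuclei, where 3.08% were called, Nr3c2 (-0.69, SE 0.18, adjusted p = 0.00708). This fit left 1 residual degree of freedom, and DESeq2 called 0 tests of members. In layer 5 ET 4.14% of all genes were called, in layer 6 CT 4.3%, in the Deptor cluster 5.9% and in the Rorb cluster 2.48%. The call was lost in 2 of 10 alternatives in layer 5 ET, 5 of 10 in layer 6 CT, 9 of 10 in the Deptor cluster and 4 of 9 in the Rorb cluster. In all pyramidal nuclei it was lost in 4 of 10 for Nr3c2 and 7 of 10 for Nr3c1, and in all inhibitory nuclei in 3 of 10 for Nr3c2. Among the other pathway genes 3 of 286 tests were called.

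Within cohort 2 alone, with housing as a term, 1 of 62 tests between Run and Sed was called, against 4.09% of all genes. It was Sgk1 in layer 6 CT neurons, whose 156 and 178 CPM in the Run libraries lay below the 207 and 209.8 CPM of the Sed libraries (log2 difference -0.42, SE 0.11, adjusted p = 0.00451). In that class 5.29% of all genes were called. In cohort 1 the Run and Sed libraries had 197 and 184 CPM. Without cohort 1 Run GH or cohort 1 Sed GH the estimate for Sgk1 there was -0.41 each. In these fits the cohort term takes up the remaining cohort 1 library. They rest on the same cohort 2 libraries and are no separate support.

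The cohorts themselves stood apart, and this comparison was added after the levels had been seen. Cohort 2 was lower than cohort 1 in 25 of 67 tests of members, and higher in 0. Of all genes 28.6% were called, 12.8% lower and 15.7% higher in cohort 2. Crhr1 was lower in all 7 classes tested, by 0.69 to 1.5 on the log2 scale. In layer 2/3 its levels were 39.9 and 42.6 CPM in cohort 1 and 17.8 to 23.7 CPM in cohort 2 (log2 difference -1.19, SE 0.19, adjusted p = 0.00154), and in the Vwa5b1 cluster 96.9 and 106 against 51.9 to 58.6 CPM (log2 difference -0.97, SE 0.14, adjusted p = 0.000621). Nr3c2 was lower in 9 of 14 classes, among them layer 5/6 NP neurons (86.4 and 74.2 against 25.1 to 42.1 CPM, log2 difference -1.49, adjusted p = 0.00041), whereas in layer 5 ET neurons it had 259 and 315 against 285 to 330.3 CPM. Nr3c1 was lower in 4 of 14 classes, Fkbp5 in 3 of 14 and Sgk1 in 2 of 14. The free RNA moved the same way: droplets without a nucleus held 172 and 182 CPM of Nr3c2 in cohort 1 and 47.5 to 65.6 in cohort 2, and 24.1 and 30.1 against 17.2 to 22.1 CPM of Crhr1. After background subtraction 20 of 63 tests of members were called, with 20.9% of all genes, and Crhr1 was still called in all 7 classes. Crhbp was called in none of 3 classes. In all pyramidal nuclei together it had 0.427 and 0.534 CPM in cohort 1 and 0.966 to 1.82 in cohort 2 (log2 difference 1.54, SE 0.34, adjusted p = 0.0161, with 38.3% of all genes called), while the droplets held 3.18 and 4.57 against 24.1 to 26.0 CPM. Background subtraction left 0 of these Crhbp UMIs in either cohort 1 library and 5 to 13 in each cohort 2 library. Of the other pathway genes 58 were higher and 50 lower in 264 tests. The metallothionein Mt1, which binds metal ions, was higher by 4.28 in the Oprk1 cluster (SE 0.42, adjusted p = 6.47e-06), by 3.59 in layer 2/3 (SE 0.30, adjusted p = 0.000101), by 3.54 in NPY/Lamp5 (SE 0.91, adjusted p = 0.0142) and by 3.90 in VIP interneurons (SE 0.96, adjusted p = 0.0182). Without the cohort 2 Run GH library the VIP estimate was -2.13 with an SE of 5.37, which leaves its direction undetermined. The cohorts also differed in behavioral testing, the choice of males by rank (cohort 1 alone), depth and free RNA, and these cannot be told apart. Without the cohort 2 Run GH library 7 of 69 tests of members were called, with 10.2% of all genes, and without the cohort 1 Sed GH library 37 of 71, with 31.3%.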

How the data were processed

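Nuclei from pooled PL tissue (3 males per library) were sequenced with the 10x Chromium 3′ kit. The authors deposited unfiltered matrices of UMI counts per gene and barcode, made with Cell Ranger 6.0.0 on mm10 per the submitters' processing notes (the file headers name another Cell Ranger version), with intron reads included per the methods. The members, the pathway list and the markers were chosen with earlier results of these data known.

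Barcodes with 500 to 4000 genes, at most 1% mitochondrial UMIs and a UMI count of at least the 99th percentile of the expected nuclei divided by 10 were kept. The UMI minimum was needed because the published limits alone left barcodes with little RNA. Background droplets were the barcodes ranked 45000 to 90000 by UMIs. Nuclei were clustered on 3000 variable genes without the 47 pathway genes (scanpy 1.11.5, Pearson residuals with theta 100, 35 components, 20 exact nearest neighbours, Leiden with igraph 0.11.9 at resolution 0.6 run to convergence). This clustering replaced an earlier one whose classes changed when it was run again, after its results had been seen, and was chosen for giving the same classes each time. Clusters were named from fixed markers (at least 3 detected). After the clusters had been seen, the rule for pyramidal clusters was loosened, 4 of them were called by their leading gene and clusters mixing markers were left out. Doublets marked by scrublet (1.09% to 6.75% of a library) were kept, and removed as an alternative.

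Counts were summed per library and class. edgeR 4.0.16 (R 4.3.3, quasi-likelihood test, TMM scaling, filter on low counts, Benjamini-Hochberg adjustment over all genes of a fit) compared classes with the library as a block, and environments as maternal environment, housing and cohort in classes with at least 20 nuclei per library (2 residual degrees of freedom, 1 with an interaction). p-values measure the spread between pooled libraries. In edgeR this spread is estimated with information shared over the genes of a fit. Very small p-values therefore do not rest on the 6 libraries of a single gene alone. Cohort deviations of Run GH and Sed GH went together (r = 0.689 over 15745 genes in pyramidal and 0.712 over 10456 in inhibitory nuclei), and the cohort term of the fit carries this pairing. Shares were taken after thinning to 1000 UMIs and before. Intervals and the limit from a count of 0 (3 counts) cover counting error only. Named genes were all members, at most 4 other pathway genes per comparison by size of the called change (all called interactions were named besides) and the 3 genes with the profile most like each member's (Pearson's r over classes, at least 500 UMIs). Those of Avpr1a are left out because it had 3 UMIs. Alternatives were DESeq2 1.42.0, its size factors, no filter, background subtraction, at least 1000 genes, no doublets, thinning, cohorts clustered apart, each library left out, no block, subsets of libraries and, added after seeing the data, totals without composition scaling and another clustering seed. The scripts were tested on simulated data.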

Additional observations from a re-analysis of the deposited data

Results flagged for a closer look

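The change between Run and Sed differed between the cohorts, by the test of the interaction itself in edgeR, for 14 results (cohort 2 minus cohort 1, log2 scale). For the members these were Nr3c1 in layer 5 ET (-0.90), layer 6 CT (-0.65), Deptor (-0.57) and all pyramidal nuclei (-0.42), and Nr3c2 in Rorb (-0.89), all pyramidal (-0.47) and all inhibitory nuclei (-0.69). For the other pathway genes they were Hif3a in layer 2/3 (2.53, adjusted p = 0.00974) and all pyramidal nuclei (1.16, adjusted p = 0.0133), Zbtb16 in the Rorb cluster (-0.92, adjusted p = 0.00101), layer 5 ET (-0.68, adjusted p = 0.00646) and all pyramidal nuclei (-0.51, adjusted p = 0.00102), Per1 in all pyramidal nuclei (-0.60, adjusted p = 0.022) and Crhr2 in all inhibitory nuclei (2.25, adjusted p = 0.0339). None of the 14 passed the threshold in DESeq2, which gave no adjusted p for Hif3a in layer 2/3 and Crhr2. In this fit cohort 1 has 1 library of each maternal group, so a single library carries each cohort 1 value.

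Droplets without a nucleus, which enter the tests only in the alternative with background subtraction, held transcripts of every member. The mean over 6 libraries was 94.1 CPM for Nr3c1, 95.6 for Nr3c2, 20.2 for Fkbp5, 63.8 for Sgk1, 21.7 for Crhr1, 17.9 for Crhbp, 3.06 for Oxtr and 0.161 for Avpr1a. The means of 4 members were above those of pyramidal nuclei, which were 91.9 CPM for Nr3c1, 1.12 for Crhbp, 0.568 for Oxtr and 0.0321 for Avpr1a. That of Nr3c1 differed by less than the spread of the droplets between libraries (SD 18.5, n = 6). Subtracting this background left 82 of 112 class tests called, with 32.4% of all genes.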

How the results depend on the processing

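Of the 83 class calls, 57 passed in each of the 16 alternatives other than the one without the block that gave them a value (39 of them had a value in all 16) and 26 were lost in at least 1 (4 of 9 for Nr3c1, 3 of 19 for Nr3c2, 10 of 15 for Fkbp5, 6 of 16 for Sgk1, 3 of 16 for Crhr1, 0 of 5 for Crhbp and 0 of 3 for Oxtr). The 83 include the 8 calls that the filter favored, for which no test is given. These are the calls of Oxtr, of Crhr1 in VIP interneurons and microglia and of Crhbp in NPY/Lamp5, VIP and CCK/Sncg interneurons. Their passing in the alternatives is no support. Without the replicate block 53 of 107 class tests of members and 41139 of all genes were called, and the comparison of environments without the cohort term called 0 tests of members. Thinning left 54373 class calls over all genes against 90507. Leaving out a library called 0 to 1 tests of members between Run and Sed (Sgk1 in layer 6 CT without cohort 1 Run GH or cohort 1 Sed GH, where 5416 and 5398 of all genes were called against 56) and 0 to 1 between SI and GH (Fkbp5 in layer 2/3 without the same libraries, where 222 and 229 were called against 1), and cohort 2 alone called 1 between Run and Sed (5252). The fits without a cohort 1 library rest on the cohort 2 libraries, like that of cohort 2 alone, because the cohort term takes up the remaining one. They are not separate support. The other alternatives called 0 tests of members in these comparisons. The interaction with cohort, called in 4 tests of members, was called in 0 by DESeq2 (218 of all genes), 2 without the filter, 1 with at least 1000 genes, 0 after thinning (591), 2 with the cohorts clustered apart and 1 with totals only (with a library left out it could not be fitted). The cohort difference, called in 25 tests, was called in 15 by DESeq2 (18862), 14 after thinning (19633) and 7 to 37 with a library left out (15216 of all genes without cohort 2 Run GH). Ratio tests with any library left out called 0 classes, since 5 libraries cannot pass. Another clustering seed left 160 of 162 single results on their side of the threshold. Reversed values were Fkbp5 in layer 5/6 NP (-0.27) and VIP (-0.00241) after thinning, Hsd11b1 in the Rorb cluster with the cohorts clustered apart (1.38, on 5192 nuclei against 2375) and Mt1 in VIP nuclei without cohort 2 Run GH (-2.13 with SE 5.37, and up to 5.55 without another library). Fkbp5 in the vascular class was 633 CPM with at least 1000 genes and with the cohorts clustered apart (385 otherwise), Nr3c2 in CCK/Sncg nuclei 1052 CPM after background subtraction (971 otherwise) and Sgk1 in VIP nuclei 212 CPM with at least 1000 genes and without doublets (256 otherwise). The causes were not tested. Alternatives without a value were those in which the class was not found or the gene failed the filter. With at least 1000 genes no Rorb cluster was found, and with the cohorts clustered apart no layer 6b. Few UMIs limit Oxtr and Avpr1a, and few nuclei limit the chandelier (79), microglial (152) and vascular (156) classes.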

Other observations

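The genes for the peptide ligands were rare in PL nuclei. Crh had 36 UMIs in inhibitory and 48 in pyramidal nuclei, or 2.43 ± 0.932 and 0.275 ± 0.187 CPM (SD, n = 6). Droplets without a nucleus held 0.501 and 1.12 CPM of Crh in cohort 1 and 4.74 to 8.48 CPM in cohort 2, and the few UMIs of nuclei were not separated from free RNA. In pyramidal nuclei Avp had 47 UMIs, Oxt 10 and Hsd11b2, the enzyme that inactivates corticosterone beside the mineralocorticoid receptor in the kidney, 12. The droplets held 0.140 to 1.36 CPM of Avp, 0.0601 to 0.704 CPM of Oxt and 0 CPM of Hsd11b2. The UMIs of Avp and Oxt in nuclei were not separated from free RNA either.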
